A study of Mus musculus with 34 samples.

Results

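The clustered protocadherin genes lie side by side on mouse chromosome 18 and encode cell adhesion proteins of neurons. DNA methylation was measured here at their CpG islands. Members were the 96 array probes that the array's annotation gives a Pcdha, Pcdhb, Pcdhga, Pcdhgb or Pcdhgc name. Probes at most 500 bases apart were joined into runs, and a run of at least 3 probes counted as an island. The 96 probes carried 24 gene names and formed 30 runs. Of these, 13 had at least 3 probes, and 12 could be scored on all 34 arrays. These 12 islands are 0.0881% of the 13616 islands scored by the same rule. They hold 69 probes and are 5 alpha islands, 4 gamma A and B islands and 3 C-type islands. The remaining 17 runs, with 24 probes, were too short to be scored, and both Pcdhb runs, Pcdhb18 and Pcdhb21, are among them. All runs fall between positions 37058076 and 37933496 of chromosome 18, a stretch of 875421 bases, in a build not given in the sources used here.

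Each alpha, beta or gamma variable exon has a promoter of its own. A neuron transcribes only some of these promoters, in a combination that differs between neighbouring neurons, and this gives each cell its own surface identity. DNA methylation, laid down in early development mainly by Dnmt3b, and binding of Ctcf and cohesin are known to take part in that choice. The C-type genes, Pcdhac1, Pcdhac2, Pcdhgc3, Pcdhgc4 and Pcdhgc5, sit at the ends of the alpha and gamma clusters and are used more uniformly, and their promoters are regulated apart from the rest.

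The study compared mouse embryonic stem (ES) cells, before and after differentiation in culture, with normal tissue. Methylated fragments were pulled down with an antibody against 5-methylcytidine and hybridised in Cy5 against the input DNA in Cy3 on 2-colour CpG island arrays. Adult tissue was represented by 16 arrays from C57Bl/6 mice aged 3 months, with 2 arrays each of colon, pancreas, brain, kidney, liver, lung, muscle and spleen. Both colon and both pancreas arrays came from males and both lung arrays from females, and in the other tissues replicate 1 was female and replicate 2 male. Whole embryos gave 5 arrays, 1 each at 8.5, 9.5, 10.5, 11.5 and 12.5 days post coitum (dpc), all male but the last. Undifferentiated ES cells gave 3 arrays, of the lines EB5, J1 and TT2. Differentiated ES cells gave 5 arrays. On 2 of them were cells labelled as TT2, grown as embryoid bodies or treated with retinoic acid, and on 3 were sorted cells of a reporter line made from EB5 (2 of endoderm, 1 of mesoderm) after Activin treatment. For the retinoic acid array the study's methods name J1 as the source, while a figure legend of the study names TT2, as the label does. The set was completed by 2 teratomas grown in NOD-SCID mice, and by 1 array each of sorted pancreatic beta cells and the pancreatic lines Min6 (beta) and aTC (alpha). The teratomas are labelled as from J1, the methods name other ES lines for them, and a teratoma also holds cells of its host.

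Each probe's log ratio of bound over input was turned into a Z value on its array, by subtracting the mean of all probes and dividing by their SD. An island's score is the mean Z of its probes, so 0 is the average probe of the array. The study calls an island methylated above 0.75 and unmethylated below 0, on scores whose Z values were taken by probe melting temperature. Here Z was taken over the whole array, so these marks are used on a scale that may differ. Scores depend on how many CpGs a fragment holds, which was not corrected here, so the scores of different islands are positions on this scale and not percentages of methylation. Of 3239 values of member probes, 78% had input signal well above background and 0 were saturated. The dimmest arrays were lung 2, with 36.8% of member probes at that mark, and liver 2, with 43.2%.

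The array labelled J1 stands apart from its label and is treated with caution throughout. Over 13616 islands its scanner values correlated at r = 0.95 with the mean of the adult arrays, against 0.793 with EB5 and 0.799 with TT2. The deposited processed values under the same label correlated with these scanner values at only r = 0.113, whereas the other 33 arrays lay between 0.894 and 0.991. The deposited J1 values correlated at 0.243 with EB5, 0.211 with TT2 and 0.175 with adult tissue over 5914 islands, so they are not used in its place. Several results that rest on this array are given with and without it. Other values for undifferentiated ES cells as a class include it unless stated.

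In adult tissue the alpha islands were highly methylated. Pcdha4 had the highest adult score of the 12 islands, with a lowest value of 2.62 on brain 1, a median of 3.12 and a highest value of 3.39 on lung 2. Its mean of 3.05 ± 0.206 (SD, n = 16) exceeded that of 98.6% of all islands. Pcdha2, Pcdha6 and Pcdha10 had means of 2.8 ± 0.266, 2.7 ± 0.233 and 2.59 ± 0.19 (SD, n = 16). No array of any adult tissue brought these 4 islands below 2.11, the Pcdha10 score of brain 1. Pcdha12 (first) differed from them, with a mean of 1.2 ± 0.564 and values from -0.0183 on lung 2 through a median of 1.12 to 2.13 on colon 1. It also differs in place, as it begins 49 bases after the annotated start of Pcdha12. The islands Pcdha2, Pcdha4, Pcdha6 and Pcdha10 lie 1741 to 2121 bases after the nearest annotated start, which belongs to the gene numbered before them (Pcdha1, Pcdha3, Pcdha5 and Pcdha9). A sixth alpha island, Pcdha12 (second), had values on 33 arrays only. It lies 1716 to 2043 bases after that same start and ranged from 2.04 to 2.66 in adult tissue.

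The gamma A and B islands were also methylated in adult tissue, with more spread between arrays. Pcdhga12 (second) ranged from 1.41 on liver 2 through a median of 2.4 to 3.13 on muscle 1, and Pcdhga12 (first) from 1.09 on liver 2 through 2.16 to 3.05 on muscle 1. Pcdhga11 ran from 0.84 on lung 2 through 2.09 to 2.64 on spleen 2, and the island that carries the names Pcdhga11 and Pcdhgb8 from 0.104 on lung 2 through 1.4 to 2.0 on kidney 1. The lowest values of all 4 came from the dim arrays lung 2 and liver 2, and a role of dim signal in that was not tested. The C-type islands stood apart. Pcdhgc3/Pcdhgc4 was below 0 on each adult array, from -0.769 on spleen 1 through a median of -0.553 to -0.141 on pancreas 1, and only 13.4% of all islands had a lower adult mean. Pcdhac2 had a median of -0.403 and was above 0 only on both colon arrays, at 0.352 and 0.196. Pcdhac1 lay in between, from -0.216 on brain 2 through 0.528 to 1.7 on colon 1. Counted over the 16 adult arrays, 7 of 12 members were above 0.75 on each, against 1004 of all islands (7.37%), and 1 of 12 was below 0 on each, against 4053 (29.8%). A mean above 2 was seen in 6 of 12 members and 864 of all islands (6.35%). All of those 6 are alpha or gamma A and B islands, with a C-type maximum of 0.545 for the adult mean of Pcdhac1.

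**Figure D1:**
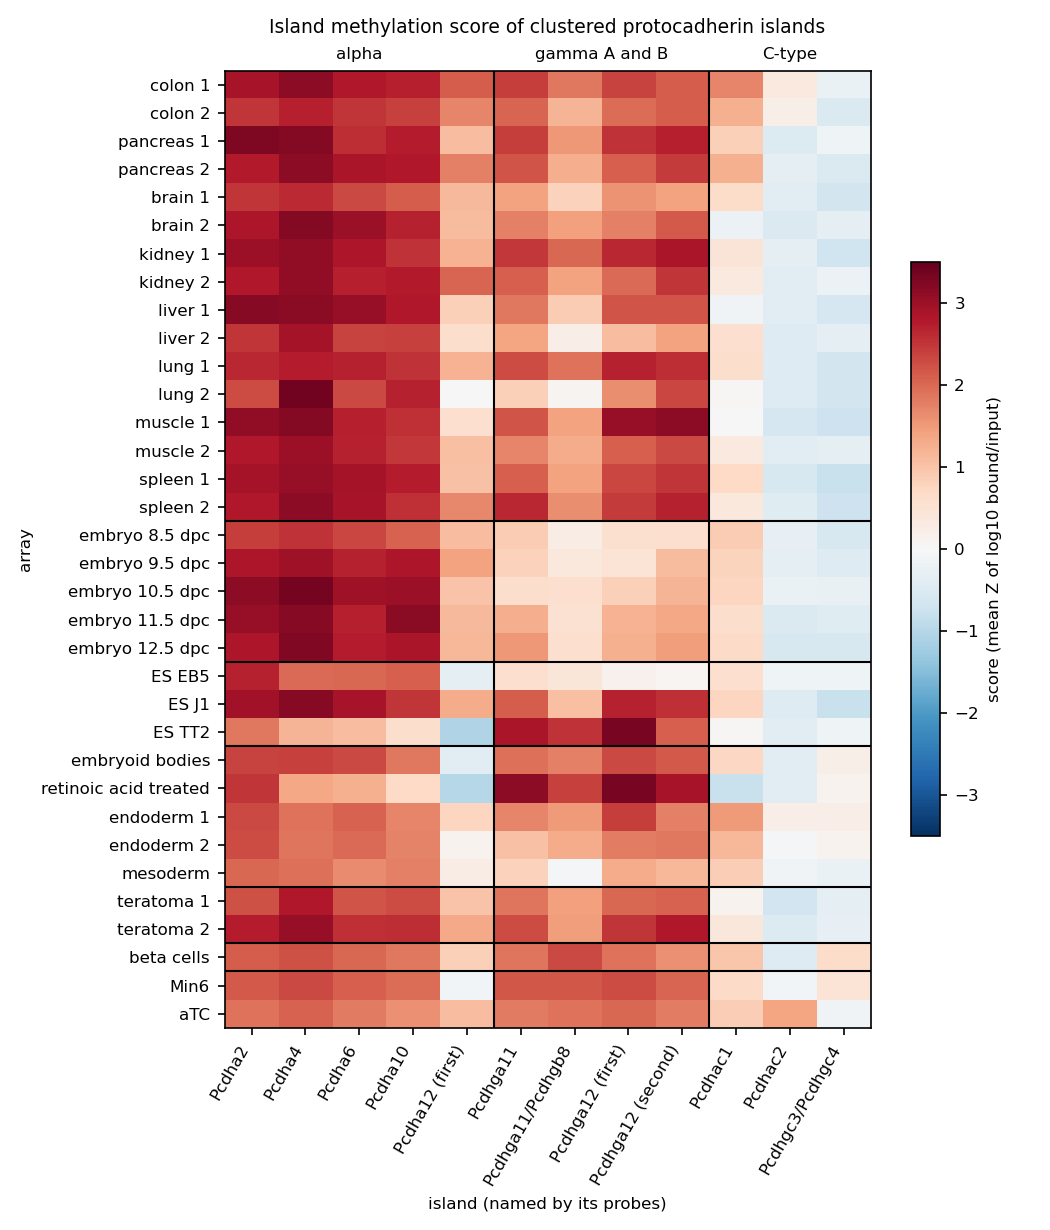
Score (mean Z of log10 bound over input, colour) of the 12 islands (columns, by gene group) on each of the 34 arrays (lines, by class, with black lines between classes). Pcdha4, Pcdha6 and Pcdha10 are deep red on most adult and embryo arrays and paler on the EB5, TT2 and differentiated arrays, while Pcdhgc3/Pcdhgc4 and, outside colon, Pcdhac2 are below 0 on adult arrays.

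Single probes showed how the signal was laid out along the genes. Of the alpha probes, 21 lie 1000 to 2300 bases after an annotated start, and their median adult Z was 2.73. The 7 alpha probes within 700 bases of a start had a median of 1.26. For gamma A and B genes the same places gave 2.21 (11 probes) and 1.15 (14 probes). Of the C-type probes, 28 lie within 700 bases of a start, and their median was -0.248. Probes beyond the start thus had the higher adult values in both variable groups, and the C-type probes are almost all at starts, so gene group and place are partly tied. Within 700 bases of a start the ranges of the groups overlap, at 0.501 to 1.94 for alpha, 0.0173 to 2.46 for gamma A and B and -1.62 to 1.13 for C-type probes. The C-type probe 1090 bases after a start read -0.328, where alpha probes at 1000 to 2300 bases were at least 0.907 and gamma ones at least 1.61. The 3 C-type probes outside both places read -0.668 to -0.0934. These C-type probes all lie in Pcdhgc3/Pcdhgc4. With so few of them, and CpG content not corrected for, gene group and place cannot be told apart. The values are medians and ranges over probes that share arrays, given as a description without a test.

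**Figure D2:**
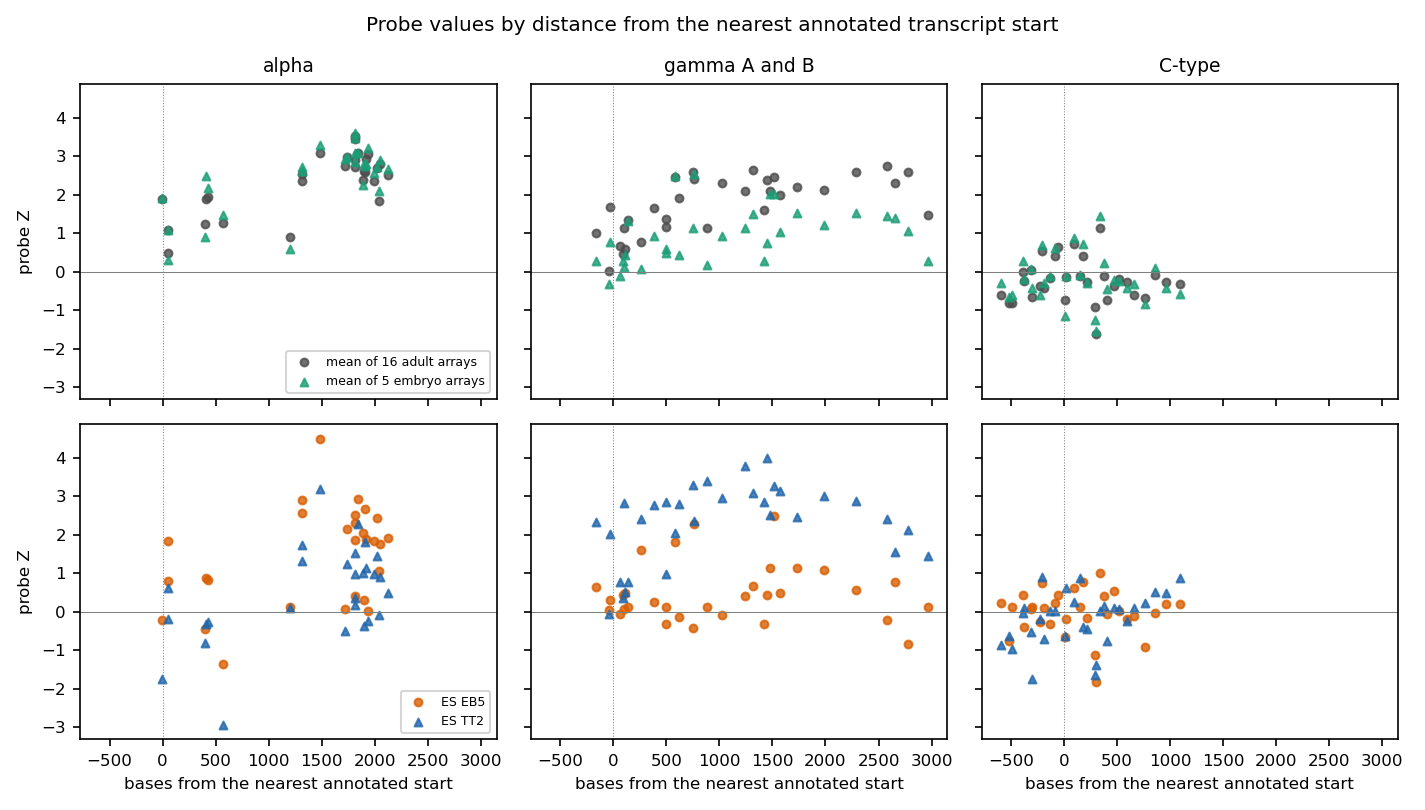
Z of single probes (vertical axis) against distance in bases from the nearest annotated transcript start (horizontal axis) for alpha, gamma A and B, and C-type genes, as means of 16 adult and 5 embryo arrays (top) and on the single ES arrays EB5 and TT2 (bottom). Embryo gamma probes lie below the adult ones at most distances. At gamma probes EB5 and TT2 separate near a start (medians 0.179 and 2.03 within 700 bases) and farther out (0.556 and 3 at 1000 to 2300 bases).

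The first comparison asks whether ES cells differentiated in culture have the methylation of adult tissue. At the alpha islands they did not. Pcdha4 was 2.38 in embryoid bodies, 1.35 after retinoic acid, 1.9 and 1.87 in the endoderm arrays and 1.94 in mesoderm, against an adult range of 2.62 to 3.39. All 5 arrays lay below the lowest adult array. The mean difference was -1.17 (SE 0.185, 5 against 16 arrays, 5 of 5 below the adult mean, limma with Benjamini-Hochberg adjusted p = 2.4e-05). The 5 arrays are labelled as derived from EB5 or TT2, and limma counted each as independent. This and the later p values thus do not measure spread between lines. Pcdha10 was 1.84, 0.692, 1.71, 1.73 and 1.75 on the same arrays, against 2.11 to 2.8 in adult tissue (median 2.62). Here too the groups did not overlap, and retinoic acid treated cells were far below the other differentiated cells. Its difference was -1.05 (SE 0.199, 5 of 5 below, limma adjusted p = 0.000216). Pcdha6 read 2.3, 1.24, 2.06, 1.99 and 1.66 against 2.31 to 3.05 (median 2.72), without overlap, at a difference of -0.85 (SE 0.179, 5 of 5 below, limma adjusted p = 0.000721). Pcdha12 (first) read -0.398, -0.985, 0.763, 0.115 and 0.253. These overlap the adult range of -0.0183 to 2.13 only through the low adult arrays, and the difference was -1.25 (SE 0.297, 5 of 5 below the adult mean, limma adjusted p = 0.00245). In this island 62.5% of adult and 66.7% of differentiated probe values had input well above background, the lowest shares among the alpha islands. Among the alpha islands Pcdha2 had the difference nearest to 0, at -0.508 (SE 0.146, 5 of 5 below, limma adjusted p = 0.0113), and without the mesoderm array it did not pass.

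So 5 of 5 alpha islands were lower in differentiated ES cells than in adult tissue, against 1188 of all 13616 islands (8.73%) at adjusted p under 0.05. Adult tissue is not the source of these cells. Against undifferentiated ES cells limma called 0 of 5 alpha islands, with differences of -0.234 to -0.0243. Most islands had no adult mean above 0.75. Among the 1603 that did a larger share, 488 (30.4%), were lower than in adult tissue, with a median difference of -0.402. Scores below those of adult tissue were thus common at methylated islands in differentiated ES cells, and the alpha islands, with a median of -1.05, were among them. All 5 alpha differences were negative under each scaling of the ratios and each block tried. With normexp, another background correction, Pcdha4 alone of the 5 was still called, and Pcdha2, Pcdha6, Pcdha10 and Pcdha12 (first) were lost. Over 15 settings, which include log2 ratios, the Pcdha12 (first) difference ran from -1.99 to -0.157. The values nearest to 0 were -0.911 for Pcdha4, -0.581 for Pcdha6 and -0.749 for Pcdha10. The 4 gamma A and B islands gave no such picture. Their differences ran from -0.378 for Pcdhga12 (second) to 0.102 for Pcdhga11/Pcdhgb8, and 0 of 4 passed limma's test at adjusted p under 0.05 or at unadjusted p under 0.05. A pair of them were negative and a pair positive, while all 4 were negative on median-centred log2 ratios. Among C-type islands Pcdhgc3/Pcdhgc4 read 0.197 in embryoid bodies, 0.128 after retinoic acid, 0.224 and 0.121 in endoderm and -0.222 in mesoderm. Only mesoderm lies inside the adult range of -0.769 to -0.141. The mean was 0.0897 against -0.501 in adult tissue, a difference of 0.591 (SE 0.107, 5 of 5 above the adult mean, limma adjusted p = 0.000131), and still lay far below the study's mark of 0.75. In the deposited values this island read 0.0877 in embryoid bodies, -0.238 after retinoic acid, 0.18 and -0.144 in endoderm and -0.368 in mesoderm. It was still called higher there. Higher calls were made for 1967 of all islands (14.4%), and with normexp the split over all islands was 1381 higher and 345 lower. Pcdhac1 and Pcdhac2 had differences of 0.142 and 0.203 that did not pass (limma adjusted p = 0.744 and 0.223). In total 6 of 12 members were called, against 3155 of all islands (23.2%), and the members' median difference was -0.324 beside -0.00995 for all islands.

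Slide and scan day were shared between some differentiated and adult arrays, so the difference could be read within them. Endoderm 2 and pancreas 1 shared a slide and a day, and between them the 5 alpha islands differed by -1.36 to -0.597 (median -0.983) and Pcdhgc3/Pcdhgc4 by 0.262. In this pair the 4 gamma A and B islands were lower too, by -1.39 to -0.208 (median -0.802). Embryoid bodies and brain 2 shared a slide, with alpha differences of -1.5 to -0.474 (median -0.83) and 0.527 for Pcdhgc3/Pcdhgc4, and gamma ones of -0.00357 to 0.557 (median 0.242). With slide as a block limma called 3 members, beside 2058 of all islands. These were Pcdha4 at -1.09 (adjusted p = 0.00808), Pcdha10 at -0.928 (0.0147) and Pcdha12 (first) at -1.24 (0.00693). Under that block limma did not pass Pcdha6 at -0.649 (adjusted p = 0.0529) or Pcdhgc3/Pcdhgc4 at 0.394 (0.114), nor Pcdha2. With scan day as a block limma called 5 members, beside 2249 of all islands, and Pcdha6 at -0.581 (adjusted p = 0.0611) was not among them.

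**Figure D3:**
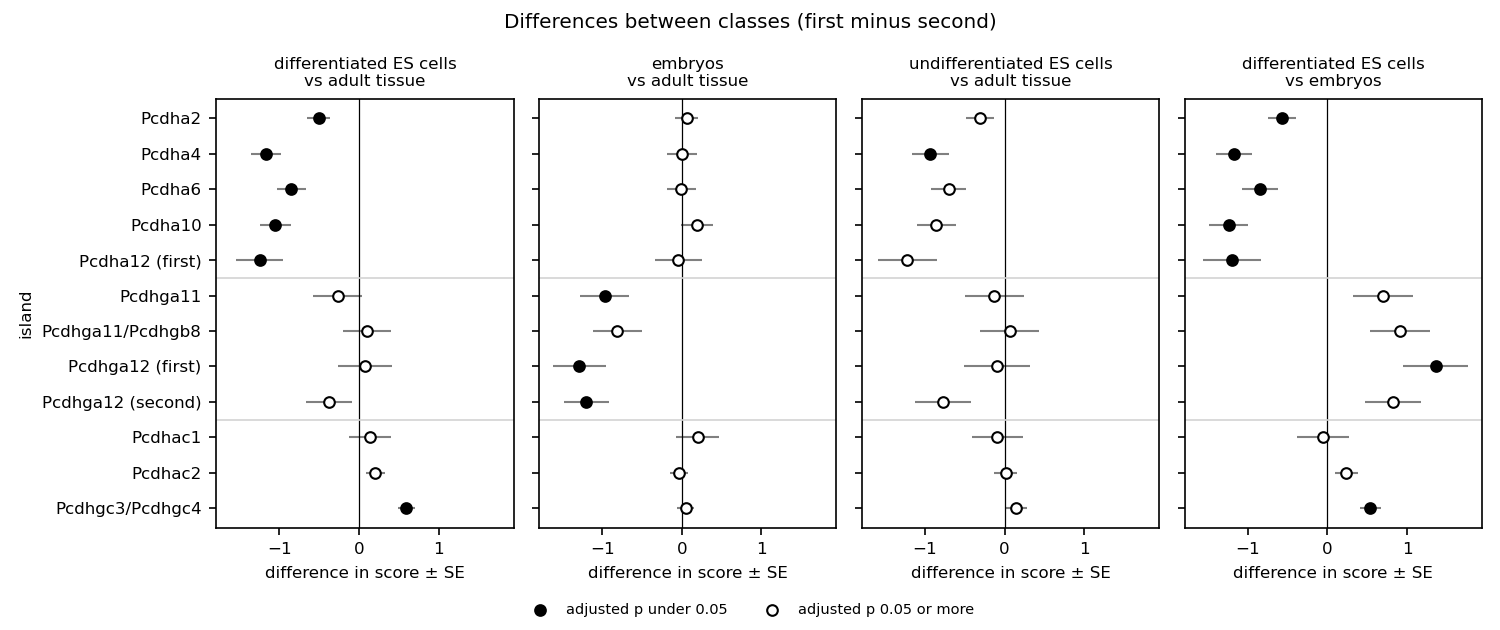
Difference in score (horizontal axis, first class minus second, in Z units, bars ± SE from limma) for the 12 islands (vertical axis) in 4 comparisons, filled where the adjusted p was under 0.05. Alpha islands lie left of 0 in differentiated ES cells against adult tissue and against embryos, and gamma A and B islands lie left of 0 in embryos and right of 0 in differentiated ES cells against embryos, under each scaling tried, while gamma signs in differentiated ES cells against adult tissue change with the scaling.

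Embryos showed the reverse division between the groups. Their alpha islands had mean differences from adult tissue between -0.0445 for Pcdha12 (first) and 0.188 for Pcdha10, and 0 of 5 passed limma's test, also at unadjusted p under 0.05. Pcdha4 read 2.54, 2.96, 3.36, 3.18 and 3.24 from 8.5 to 12.5 dpc, and Pcdha10 read 2.07, 2.83, 3.0, 3.16 and 2.85. At Pcdha10 the 4 older embryos were above each adult array (highest 2.8), and at 8.5 dpc both islands were below each adult array. The Pcdha10 mean thus covers arrays on both sides of the adult range. Above 0.75 on all 5 embryo arrays were 5 of 12 members and 1161 of all islands (8.53%), and those 5 are the alpha islands. At the gamma A and B islands the embryos were lower. Pcdhga12 (first) read 0.562, 0.487, 0.826, 1.22 and 1.25 at 8.5, 9.5, 10.5, 11.5 and 12.5 dpc, against an adult range of 1.09 to 3.05 (median 2.16). The 3 younger embryos lay below each adult array and the other 2 just inside the range. The difference was -1.29 (SE 0.334, 5 of 5 below the adult mean, limma adjusted p = 0.0131). Pcdhga12 (second) read 0.575, 1.11, 1.18, 1.36 and 1.47, against 1.41 to 3.13 (median 2.4). Only the embryo at 12.5 dpc reached the adult range, and the difference was -1.2 (SE 0.283, 5 of 5 below, limma adjusted p = 0.00639). Pcdhga11 read 0.892, 0.793, 0.613, 1.26 and 1.52, overlapping the adult range of 0.84 to 2.64, with a difference of -0.969 (SE 0.304, 5 of 5 below, limma adjusted p = 0.0431). Pcdhga11/Pcdhgb8 at -0.808 did not pass (limma adjusted p = 0.0981). At this island 6, 1, 2, 0 and 1 of 6 probes had input well above background from 8.5 to 12.5 dpc. Over all member probes that share was 97.9% at 8.5 dpc and 55.8% to 66.3% on the other embryo arrays. A role of dim signal in the embryo values was not tested.

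Thus 3 of 4 gamma A and B islands were called lower in embryos than in adult tissue, against 472 of all islands (3.47%) and 234 (14.6%) of the 1603 islands with an adult mean above 0.75. All 4 differences were negative in each scaling and block tried. With normexp all 3 calls were lost, and on median-centred log2 ratios or with slide as a random block the call of Pcdhga11. No C-type island was called, and their differences ran from -0.035 to 0.197. Over all 12 members 3 were called, beside 1176 of all islands (8.64%). The mean over the 4 gamma islands was 0.575 at 8.5 dpc, then 0.687, 0.8, 1.09 and 1.2 at 12.5 dpc, below the adult median of 1.99 on each array. One array stands behind each age and the last embryo differs in sex, so this order was not tested. The Pcdhga11 call was lost without the embryo at 8.5, 9.5, 10.5 or 11.5 dpc (limma adjusted p = 0.101, 0.126, 0.136 and 0.0699), and without the embryo at 9.5 dpc Pcdhga12 (first) was lost too (-1.19, adjusted p = 0.0572), leaving 1 call. Without that embryo 301 of all islands were lower, and with normexp 50. No slide or scan day held both an embryo and an adult array, and the embryos at 9.5 to 12.5 dpc shared their software version with teratoma 2 alone. Blocked fits therefore reach adult tissue only through the embryo at 8.5 dpc, which shared slide and day with TT2. With slide as a block 0 of 12 passed, beside 3 of all islands, and 4 had unadjusted p under 0.05, with Pcdhga12 (first) at -4.69 (limma adjusted p = 0.0552). With scan day as a block 0 of 12 passed, beside 0 of all islands, and 7 had unadjusted p under 0.05, with Pcdhga12 (first) at -3.3 (limma adjusted p = 0.314). How many of all islands had unadjusted p under 0.05 in these blocked fits was not counted, so the 4 and 7 have no background to be set against.

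Set directly against embryos, 5 of 5 alpha islands were called lower in differentiated ES cells, and 1 of 4 gamma A and B islands was called higher. Pcdha10 gave -1.24 (SE 0.245, limma adjusted p = 0.000597), as the embryos read 2.07, 2.83, 3.0, 3.16 and 2.85 and no differentiated array exceeded 1.84. Pcdha4 gave -1.17 (SE 0.229, limma adjusted p = 0.000526), Pcdha12 (first) -1.2 (SE 0.367, adjusted p = 0.0187) and Pcdha6 -0.845 (SE 0.221, adjusted p = 0.00663). In each of these 4 islands all 5 differentiated arrays lay below all 5 embryos. Pcdhga12 (first) was higher by 1.36 (SE 0.412, 5 of 5 above the embryo mean, limma adjusted p = 0.0184). Its differentiated arrays read 2.31 in embryoid bodies, 3.31 after retinoic acid, 2.41 and 1.8 in endoderm and 1.31 in mesoderm, all above the highest embryo at 1.25. Pcdhgc3/Pcdhgc4 was higher by 0.54 (SE 0.132, limma adjusted p = 0.00406), again without overlap, since the embryos lay between -0.565 and -0.253.

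In all, 7 of 12 members were called, 5 lower and 2 higher, against 2872 of all islands (21.1%), of which 1265 were lower (9.29%) and 1607 higher (11.8%). Of the 1603 islands with an adult mean above 0.75, 412 were lower (25.7%) and 153 higher (9.54%). On median-centred log2 ratios the split over all islands was 1192 higher and 1439 lower, and with normexp it was 703 higher and 128 lower. The gamma islands that did not pass were Pcdhga11 at 0.699, Pcdhga11/Pcdhgb8 at 0.91 and Pcdhga12 (second) at 0.823 (limma adjusted p = 0.189, 0.0822 and 0.0925). The alpha differences were negative in 5 of 5 islands and the gamma ones positive in 4 of 4 in each scaling tried, but the calls were not kept. On median-centred log2 ratios Pcdhga12 (first) was lost, and with normexp only Pcdha4 and Pcdha10 were kept. Without the retinoic acid array limma called 5 members, and Pcdha12 (first) at -0.97 (adjusted p = 0.0573) and Pcdhga12 (first) at 1.09 (0.0568) no longer passed. Pcdha2, at -0.568 (limma adjusted p = 0.0241), was lost without the mesoderm array or the embryo at 10.5 or 11.5 dpc. No slide or day held an embryo with a differentiated array. With slide as a block 3 members passed limma's test, all gamma and all higher, beside 94 of all islands. The alpha values of Pcdha4 and Pcdha10 were then -1.29 (limma adjusted p = 0.26) and -1.67 (0.14). Scan day as a block left 2 member calls by limma, beside 365 of all islands. These were Pcdha10 at -2.07 (limma adjusted p = 0.0111) and Pcdhga11/Pcdhgb8, and Pcdha4 at -2.05 (0.0538) was not among them.

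Undifferentiated ES cells were measured on 1 array per line. At Pcdha4, EB5 read 1.99, TT2 1.19 and the array labelled J1 3.18. The first pair lay below each adult array and the third inside the adult range. The difference was -0.932 (SE 0.228, 2 of 3 arrays below the adult mean, limma adjusted p = 0.0262) and Pcdha4 was the 1 member of 12 called, beside 313 of all islands (2.3%), 179 of them lower (1.31%). Of the 1603 islands with an adult mean above 0.75, 167 were lower (10.4%). Another 4 members had unadjusted p under 0.05, namely Pcdha6, Pcdha10, Pcdha12 (first) and Pcdhga12 (second), so that 5 of 12 members and 2276 of all 13616 islands were under that mark. Without the array labelled J1 the count was 5, all lower, when Pcdha6, Pcdha10, Pcdha12 (first) and Pcdhga12 (second) joined Pcdha4 at -1.46 (limma adjusted p = 1.03e-05). Then 527 of all islands (3.87%) were lower. Without EB5 or without TT2 limma's count was 0, beside 0 of all islands, with Pcdha4 at -0.866 (adjusted p = 0.366) and -0.469 (0.577). There 5 and 2 members had unadjusted p under 0.05, which was not counted over all islands. EB5 shared slide and day with pancreas 2, and the difference between these at Pcdha4 was -1.16. The array labelled J1 shared its day with 6 adult arrays and differed from their mean by 0.2 there. Blocked fits gave -1.16 (slide, limma adjusted p = 0.0962) and -0.3 (scan day, adjusted p = 1.0).

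The lines EB5 and TT2 were far apart at the gamma A and B islands. Pcdhga12 (first) was 0.146 in EB5 and 3.32 in TT2, with 2.7 on the array labelled J1. Pcdhga11 was 0.601, 2.86 and 2.11, and Pcdhga11/Pcdhgb8 was 0.426, 2.53 and 1.04 on the same arrays. At these 3 islands EB5 was inside or below the range of the embryos, and TT2 was above that of adult tissue. At the alpha islands TT2 was the lower line, at 1.08 for Pcdha6 and 0.612 for Pcdha10, against 2.02 and 2.09 in EB5. In Pcdha12 (first) both lines were below 0, at -0.333 in EB5 and -1.04 in TT2. Set against the adult range, 7 of 12 members were below each adult array in EB5 (8.65% of all islands), 1 of 12 on the array labelled J1 (3.45%) and 5 of 12 in TT2 (11.4%), the 5 alpha islands. Above each adult array in TT2 were 3 of 12 members, all gamma (17.8% of all islands). Over the 12 islands the scores of EB5 and TT2 correlated at r = 0.188, against 0.881 over all 13616 islands, where islands on an array are not independent. In the deposited values Pcdhga12 (first) was 0.0368 in EB5 and 3.43 in TT2. Each line is a single array, and TT2 was processed with another software version and position grid than EB5, so the difference between the lines was not tested and cannot be told apart from batch.

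**Figure D4:**
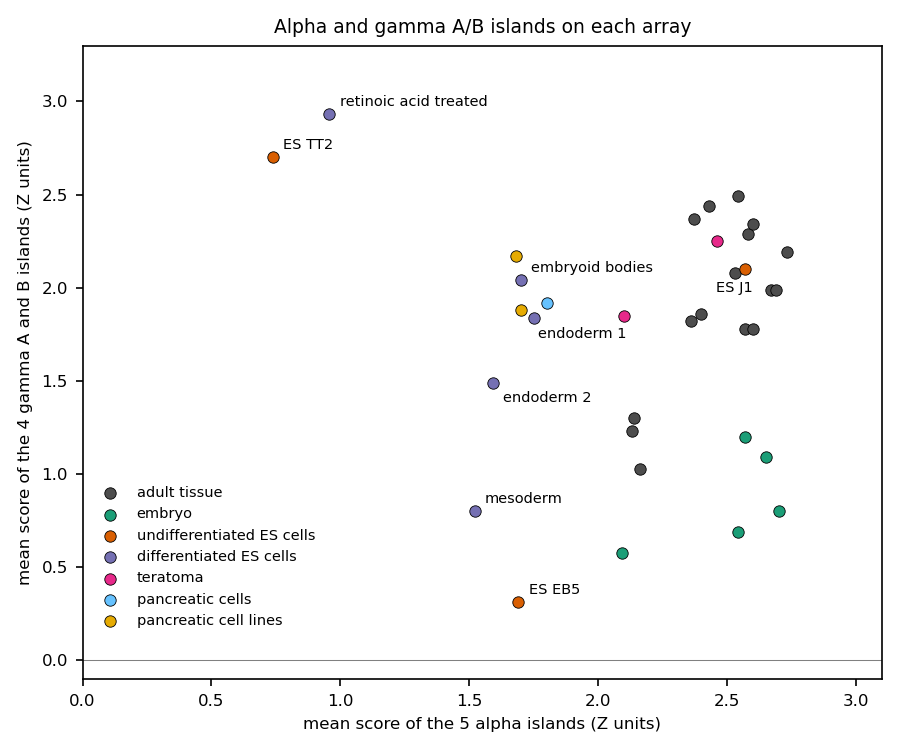
Mean score of the 4 gamma A and B islands (vertical axis, Z units) against that of the 5 alpha islands (horizontal axis, Z units), 1 point per array, coloured by class. Adult arrays lie at 2.13 to 2.73 for alpha, embryos lie at 2.09 to 2.7 for alpha but at 0.575 to 1.2 for gamma, and EB5 has the lowest gamma mean of the 34 arrays at 0.314, with TT2 at 2.7.

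Read against their own line of origin, the differentiated cells moved in different directions. From EB5, the gamma A and B islands were higher in both endoderm arrays, by a median of 1.39 and 1.27, while mesoderm had a median of 0.639 and a range of -0.485 for Pcdhga11/Pcdhgb8 to 1.16 for Pcdhga12 (first). Pcdhga12 (first) went from 0.146 to 2.41 and 1.8 in endoderm and to 1.31 in mesoderm. At least 0.75 above EB5 were 6 of 12 members in endoderm 1 (8.93% of all islands), 3 in endoderm 2 (7.64%) and 2 in mesoderm (6.83%). Alpha islands had medians of -0.0886, -0.122 and -0.338, though Pcdha12 (first) was 1.1 higher in endoderm 1. From TT2, embryoid bodies had higher alpha scores, by a median of 1.19, and lower gamma scores, by a median of -0.86. Pcdha10 went from 0.612 to 1.84 and Pcdhga12 (first) from 3.32 to 2.31. Embryoid bodies thus had 3 members at least 0.75 above TT2 (7.18% of all islands) and 3 at least 0.75 below it (1.83%), and the latter are all gamma islands. Retinoic acid treated cells differed less from TT2, with medians of 0.155 for alpha and 0.128 for gamma. Only Pcdhga12 (second) was at least 0.75 higher, by 0.814 (5.65% of all islands), and only Pcdhac1 at least 0.75 lower, by -0.836 (1.58%). Over the 12 islands their scores correlated at 0.968 with TT2 and 0.598 with the array labelled J1, but over all 13616 islands at 0.877 and 0.839 (0.847 with EB5), so the line they came from is not settled by this. These are differences between single arrays and carry no test. TT2 and the retinoic acid array shared a software version and position grid, which EB5 and embryoid bodies did not share with them, so line, treatment and batch cannot be told apart here.

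**Figure D5:**
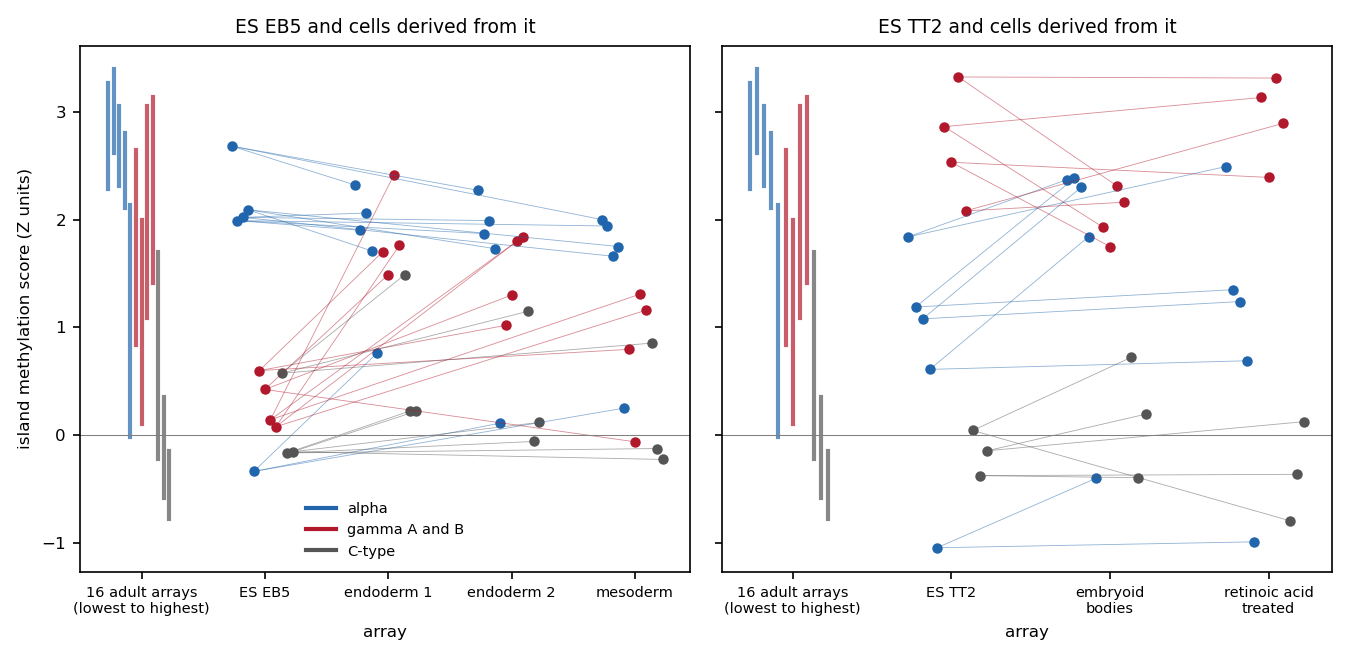
Scores (vertical axis, Z units) of the 12 islands in EB5 (left) and TT2 (right) and in the cells derived from each (horizontal axis, 1 array each), with lines from the parent to each derivative and bars for the range of the 16 adult arrays. Gamma A and B islands (red) start low in EB5 (mean 0.314) and high in TT2 (2.7). Between the panels their means are closer in endoderm (1.84 and 1.49) and embryoid bodies (2.04).

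Pooled over lines, differentiated against undifferentiated ES cells gave 0 of 12 members called by limma and 1 at unadjusted p under 0.05, beside 739 of all islands (5.43%) called and 2848 at unadjusted p under 0.05. The 739 became 488 without the array labelled J1 and 1365 without the retinoic acid array. The 1 member was Pcdhgc3/Pcdhgc4, at 0.446 (SE 0.153, 5 of 5 above the undifferentiated mean, limma adjusted p = 0.0812), and 0.236 without the array labelled J1. The next in size were Pcdhga12 (second) at 0.393 (SE 0.404, limma adjusted p = 0.636), which turned to -0.351 without EB5, and Pcdha4 at -0.234 (SE 0.264, adjusted p = 0.672), which turned to 0.297 without the array labelled J1. On all 5 differentiated arrays 6 of 12 members were above 0.75, against 1349 of all islands (9.91%). Those 6 are Pcdha2, Pcdha4, Pcdha6, Pcdhga11, Pcdhga12 (first) and Pcdhga12 (second).

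Teratomas, in which ES cells differentiate inside an animal, were also set against adult tissue. Pcdha4 read 2.79 and 3.05, Pcdhga12 (first) 2.02 and 2.49, and Pcdhgc3/Pcdhgc4 -0.338 and -0.28. Each of these 6 values lies inside the adult range. Below each adult array in teratoma 1 were 3 of 12 members, Pcdha2, Pcdha6 and Pcdhac2 (6.07% of all islands), and in teratoma 2 there were 0 (4.25%). Limma called 0 of 12 members and 0 had unadjusted p under 0.05, beside 43 of all islands (0.316%) called and 1182 at unadjusted p under 0.05. The 43 became 23 without teratoma 1, 8 without teratoma 2 and 215 with normexp. The differences that were largest in size were -0.317 for Pcdha6 (SE 0.171, limma adjusted p = 0.622), -0.309 for Pcdha2 (SE 0.197, adjusted p = 0.683) and -0.281 for Pcdhac1 (SE 0.354, adjusted p = 0.831). With 2 arrays, 27 member probes without input well above background on either and an unsettled line of origin, these do not show that teratomas and adult tissue are alike.

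Clustered protocadherins are expressed mainly in the nervous system, so brain was compared with the other adult tissues. Pcdhga12 (second) read 1.42 and 2.16 in brain, the lowest tissue mean of the 8 (1.79), while muscle had the highest (2.71). Brain minus the other tissues was -0.628 (SE 0.249, both arrays below the mean of the others, limma adjusted p = 1). Pcdhga12 (first) gave -0.562 (SE 0.335) and Pcdhga11 -0.454 (SE 0.302), both with limma adjusted p = 1. Brain replicates differed by 0.738 at Pcdhga12 (second), and without brain 1 or brain 2 the difference was -0.259 or -0.997. By limma 0 of 12 members were called and 1 had unadjusted p under 0.05, beside 0 of all islands (0%) and 544 at unadjusted p under 0.05.

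Among all 8 tissues the C-type islands of the alpha cluster varied most relative to their replicates. Pcdhac2 read 0.352 and 0.196 in colon and between -0.575 and -0.325 on the other 14 arrays. No other adult array came near the colon pair, and replicates of a tissue differed by at most 0.214. Both colon arrays were scanned on a day that no other array shared, and a role of that day was not tested. Pcdhac1 had tissue means from 0.155 in muscle to 1.47 in colon, with pancreas next at 1.04. Its replicates differed by a median of 0.446 and by up to 0.859 in brain, so the lower tissues, from muscle at 0.155 to spleen at 0.532, do not differ beyond that spread. Limma's F test over tissues gave unadjusted p = 0.0029 for Pcdhac2 (adjusted p = 0.541) and 0.0209 for Pcdhac1 (adjusted p = 1). It called 0 of 12 members, with 2 at unadjusted p under 0.05, beside 11 of all islands (0.0808%) and 538 at unadjusted p under 0.05. Pcdha12 (first) had tissue means from 0.603 in lung to 1.92 in colon, but its lung replicates alone differed by 1.24.

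Pancreatic cells were measured on 1 array each and carry no test. Sorted beta cells read 2.11, 2.23, 2 and 1.84 at Pcdha2, Pcdha4, Pcdha6 and Pcdha10, each below the adult range, as were 10% of all islands. Above the adult range were 2 of 12 members (11.6% of all islands), Pcdhgc3/Pcdhgc4 at 0.649 and Pcdhga11/Pcdhgb8 at 2.3. In Min6, a line from a mouse insulinoma, 5 of 12 members lay below the adult range (26% of all islands), and in aTC, a glucagon-producing line, 4 did (34.9%). Against beta cells, Min6 had 0 members at least 0.75 higher (10.5% of all islands) and 1 at least 0.75 lower (6.96%), Pcdha12 (first) by -0.921. In aTC 1 member was at least 0.75 higher (13.8%) and 1 lower (9.08%). The higher one was Pcdhac2, at 1.39 in aTC against -0.449 in beta cells and -0.096 in Min6, and aTC had the highest Pcdhac2 score of the 34 arrays. The lower one was Pcdhgc3/Pcdhgc4, at -0.121 in aTC against 0.649. These counts depend on the scale. The SD of log10 ratios was 0.339 on the beta cell array, 0.535 in Min6 and 0.561 in aTC. On median-centred log2 ratios, which keep that spread and where the limit of 0.75 is in log2 units, Min6 had 8 members higher (23.5% of all islands) and 1 lower (14.7%), and aTC had 11 higher (28.7%) and 0 lower (23.7%). With normexp and the same Z scoring Min6 had 5 higher (11.2%) and aTC 6 (14.2%), and the cause of these shifts was not tested.

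The runs too short to score were described by their mean Z. For the 8 short alpha runs the median was 2.24 in adult tissue, 2.43 in embryos, 1.43 in undifferentiated (0.973 without the array labelled J1) and 1.415 in differentiated ES cells. Not all followed these medians. The Pcdha7 probes 1485 and 6570 bases after a start read 3.68 and 3.51 in undifferentiated ES cells, and 3.84 and 3.67 without the array labelled J1. In adult tissue each read 3.09. The Pcdha7 probe at 55 bases read 0.967 in differentiated ES cells against 0.501 in adult tissue. For the 7 short gamma A and B runs it was 1.01, 0.605, 0.854 (0.502 without the array labelled J1) and 0.912. The single Pcdhb18 probe, 1712 bases after its start, read 2.66 in adult tissue, 2.71 in embryos, 1.7 in undifferentiated (EB5 0.82, TT2 1.49 and the array labelled J1 2.79) and 1.63 in differentiated ES cells. The single Pcdhb21 probe, 2224 bases after its start, read 1.62, 1.57, 0.818 and 0.481. EB5 read 0.491 here, TT2 0.212 and the array labelled J1 1.75, and the undifferentiated mean was 0.351 without the last. Both beta probes were lower in EB5, TT2 and the mean of differentiated cells than in the means of adult tissue and embryos. A single probe can be off for reasons of its own, so no test was made.

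Related genes were described in the same way. Non-clustered protocadherins, which are single genes with promoters of the usual kind, gave 15 islands from 5 of 14 names (Pcdh1, Pcdh7, Pcdh8, Pcdh10 and Pcdh17), with an adult median of -0.312 against 2.07 for the 12 members and -0.212 for all islands. In differentiated ES cells against adult tissue 1 of 15 was called (23.2% of all islands), Pcdh8, which was higher by 0.645 (SE 0.163, 5 of 5 arrays above the adult mean, limma adjusted p = 0.00429), and the list's median difference was 0.0519. Against embryos 2 of 15 were called (21.1% of all islands), both higher. By limma Pcdh8 was higher by 0.89 (5 of 5 above the embryo mean, adjusted p = 0.00211) and Pcdh7 by 0.472 (4 of 5, adjusted p = 0.0241). Embryos and undifferentiated ES cells against adult tissue gave 0 of 15 calls by limma each, beside 8.64% and 2.3% of all islands. At unadjusted p under 0.05 were 1 and 2 of the 15, beside 3015 and 2276 of all islands. Flanking islands within 1 Mb on either side numbered 34, of which 1, at Taf7, lies between members, and 5, at Pcdh1, are also among the non-clustered ones. Their adult median was -0.247. In differentiated ES cells 4 of 34 were higher (14.4% of all islands) and 1 lower (8.73%) than in adult tissue, with a median difference of 0.05. Only 3 of the 34 had an adult mean above 0.75. Scores below a high adult mean, like those of the alpha islands, could be looked for in those 3 only. The lowest difference among the 34 was -0.47. In embryos 1 of 34 was called by limma, beside 8.64% of all islands, and it was higher. Another count, at unadjusted p under 0.05, was 3 of 34, beside 3015 of all islands. With scan day as a block that call was lost, as limma then called 0 of all islands.

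Genes that act on protocadherin promoter choice gave 18 islands from 16 of 22 names. In differentiated ES cells against adult tissue 4 of 18 were called, 1 higher and 3 lower, near the background of 23.2%. Atf7ip, a partner of the histone methyltransferase Setdb1, was higher by 2.47 (SE 0.284, 5 of 5 arrays above each adult array, limma adjusted p = 1.76e-07), and also in undifferentiated ES cells by 1.89 (2 of 3 above the adult mean, adjusted p = 0.00637). EB5 read 2.79 here, TT2 2.57 and the array labelled J1 -0.287, against -0.705 to 0.0983 in adult tissue (median -0.183), and without that array the limma difference was 2.88 (adjusted p = 2e-09). The call in undifferentiated ES cells was lost without EB5, without TT2, on median-centred log2 ratios or with scan day as a block. In each of these limma called 0 of all islands. In differentiated ES cells Ctcf, which binds protocadherin promoters, had a difference of -0.509 (SE 0.106, limma adjusted p = 0.000651). Stag1, a cohesin subunit, had -0.281 (SE 0.077, limma adjusted p = 0.00803), and the island shared by Ribc1 and Smc1a, another cohesin subunit, -1.53 (SE 0.527, limma adjusted p = 0.0337). On all 5 differentiated arrays each of these 3 lay below its adult mean. Ctcf and Stag1 were below 0 in both classes, with adult means of -0.675 and -0.358 and differentiated means of -1.18 and -0.639. The island shared by Ribc1 and Smc1a lies on the X chromosome, and the adult arrays mix the sexes. In embryos against adult tissue 2 of 18 were called, both lower, beside 8.64% of all islands called and 3.47% called lower. Wiz, a zinc finger protein, gave -1.38 (SE 0.265, limma adjusted p = 0.00104) and Dnmt3b, the methyltransferase named above, -0.367 (SE 0.118, limma adjusted p = 0.0498), each with 5 of 5 embryos below the adult mean. With scan day as a block both calls were lost, as limma then called 0 of all islands in embryos. The Dnmt3b island had a mean of -0.759 in embryos and -0.392 in adult tissue, below 0 in both.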

How the data were processed

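Deposited scanner files held, per probe, raw median intensity values of spot and local background in both dyes, and log10 ratios of bound over input, which the authors' scanner software made from background-subtracted, dye-normalized signals (per the file headers). The authors' deposited table holds a score per probe, a Z value of the log ratio taken by melting temperature, blank for many probes for reasons not stated. The score was used only for comparison. Raw intensities were used only for signal checks and for normexp (offset 50). Here each array's log10 ratios were turned into Z values over all its probes and averaged over islands. Of the arrays, 14 carried 97651 probes and 20, all embryo arrays among them, carried 88737. Z was thus taken over different sets of probes, and an effect of this was not tested. Embryos, adult tissue, and ES cells before and after differentiation were compared with limma in 1 fit of these 4 classes. Teratomas were tested in a separate limma fit with the adult arrays, and tissues in another among the 16 adult arrays. Each used Benjamini-Hochberg over all 13616 islands and a threshold of 0.05. The array labelled J1 was kept. The p values measure spread between arrays, part of which may be technical. In the fit of classes each array counted as independent, though differentiated arrays share lines of origin and adult arrays come in pairs of a tissue. Members and lists were chosen with earlier results of these data known. Described members were the called islands with the largest differences (up to 5 per comparison, otherwise the 3 largest differences), the C-type islands and the extremes of the adult scores. Pcdha2, Pcdhga11/Pcdhgb8 and, in places, Pcdhga11 were described outside that rule, after their values were seen. The limma code was tested on simulated data. Alternatives tried are given in the closing section. Versions were R 4.3.3, limma 3.58.1, Python 3.11.15, numpy 2.4.6, pandas 2.3.3 and matplotlib 3.10.9.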

Additional observations from a re-analysis of the deposited data

Results flagged for a closer look

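Within groups of 5 arrays, a value far from the other 4 by Dixon's 95% limit was found in 2 of 24 groups (12 islands in embryos and in differentiated ES cells). Chance alone gives about 1 in 20. Pcdha10 was 0.692 in retinoic acid treated cells, below the other 4 differentiated arrays at 1.71 to 1.84. Pcdhgc3/Pcdhgc4 was -0.222 in mesoderm, below the other 4 at 0.121 to 0.224.

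At 4 of 12 islands each derivative of EB5 moved one way from its line and each derivative of TT2 the other way. How many of all islands meet this rule was not counted, so the 4 have no background to be set against. The mean change in EB5 derivatives minus that in TT2 derivatives was -1.07 for Pcdha2, -0.758 for Pcdha4 and -1.01 for Pcdha10, which were lower than EB5 and higher than TT2. It was 2.2 for Pcdhga12 (first), which was higher than EB5 and lower than TT2. The retinoic acid change at Pcdhga12 (first) was only -0.0157, where adult replicates differed by a median of 0.556. Each line is 1 array that all its derivatives are set against, so 1 high or low parent value would give the same signs, and the difference was not tested.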

How the results depend on the processing

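Counts are members called of 12 unless stated, after 6 in differentiated ES cells against adult tissue, 1 in undifferentiated ES cells against adult tissue, 3 in embryos against adult tissue and 7 in differentiated ES cells against embryos. In that order, the deposited table (3 members scored) gave 1, 0, 1 and 2. Only probes with input well above background on every array (2 members scored) gave 1, 0, 0 and 1. At least 5 probes per island (6 members scored) gave 1 and 0 in the first pair and 2 in the last. In these 3 settings fewer members could be tested. Normexp background correction on median signals, followed by the same scoring, gave 2 (Pcdha4 and Pcdhgc3/Pcdhgc4), 0, 0 and 2 (Pcdha4 and Pcdha10). Slide as a block gave 3, 2, 0 and 3. Scan day as a block gave 0 in undifferentiated ES cells, 0 in embryos and 2 in the last comparison. Software version as a block gave 0, 0 and 4 in the same comparisons. For undifferentiated ES cells, median-centred log2 ratios gave 0, slide as a random block 3, a fit of only the classes compared 0 and the study's own t-test 0. For embryos, slide as a random block gave 2. Leaving out 1 array gave 5 to 6, 0 to 5, 1 to 3 and 5 to 8. The 1 came without the embryo at 9.5 dpc, and the 0 and 5 without EB5 and without the array labelled J1. The cause of these shifts was not tested.

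Over all islands, differentiated ES cells against adult tissue had 3155 calls, and 1726 with normexp and 2058 with slide as a block. Undifferentiated ES cells had 313, and 1151 without the array labelled J1, 0 without EB5, without TT2, on median-centred log2 ratios, with scan day as a block or with the t-test, 6 with normexp and 1564 (of 5914) in the deposited table, which includes its doubted J1 column. Differentiated against undifferentiated ES cells had 739, and 228 on median-centred log2 ratios, 80 with normexp, 184 with slide as a block, 4 with only the classes compared and 0 with the t-test. Embryos had 1176, and 3 with slide, 0 with scan day and 7 with software version as a block. They had 603 with slide as a random block and 689 without the embryo at 9.5 dpc. Normexp left 55 higher and 50 lower calls there. Differentiated ES cells against embryos had 2872, and 94, 365 and 192, with 831 under normexp.

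Differentiated against undifferentiated ES cells, teratomas, brain and the test among tissues gave 0 members in every setting. In the first, Pcdha4 at -0.234 turned to 0.061 with slide as a block, and leaving out 1 array gave -0.698 to 0.297, the latter without the array labelled J1. Pcdhga12 (second) at 0.393 was -0.351 without EB5, 0.881 without the array labelled J1 and 1.93 with slide as a block. In teratomas, normexp turned Pcdha6 to 0.295, Pcdha2 to 0.396 and Pcdhac1 to 0.0263. For the pancreatic lines, 3 differences of at least 0.75 in either line became 1 at a limit of 1, 1 in the deposited table, 20 on median-centred log2 ratios and 11 with normexp.

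The planned normexp on mean signals was not run, as 16 files lack mean signals. Normexp on median signals, software version as a block, slide as a random block for classes and the fit without the array labelled J1 were chosen after the data were seen. The last kept 6, 3 and 7 calls, beside 3258, 1233 and 3011 of all islands. With the study's t-test and Benjamini-Hochberg 6, 0, 4 and 7 members were called, beside 2867, 0, 1409 and 2070 of all islands. By that t-test 6, 4, 4 and 8 members had unadjusted p under 0.05, which was not counted over all islands. Replicate numbers were not used as pairs, since only 14 of 28 tissue pairs correlated above 0.1 (-0.253 to 0.629, median 0.106). In brain, kidney, liver, lung, muscle and spleen replicate 1 shared a scan day and replicate 2 did not share it, so the number is partly tied to the day. A replicate block gave 0 members in brain and among tissues. Column medians of the deposited table ran from -0.315 to -0.0134.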
